A study of Drosophila melanogaster with 8 samples.

Results

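Proteasome subunits were compared between ML-DmD17-c3 cells and S2-DRSC cells, both Drosophila melanogaster lines kept in culture. Members were taken by name, as every gene in the files whose symbol begins with Prosalpha, Prosbeta, Rpn or Rpt followed by a digit, and 47 of 17730 genes met this rule. Of these, 32 were canonical subunits (7 Prosalpha, 7 Prosbeta, 6 Rpt and 12 Rpn genes) and 15 were paralogs, whose symbols carry a T or an R at the end, with or without a digit. ML-DmD17-c3 (D17-c3 from here on) is a line of imaginal disc origin, and S2-DRSC is a stock of the embryonic, hemocyte-like S2 line. The study profiled polyadenylated RNA from 4 culture flasks of each line, with no treatment named in the labels, so the line is the only difference that the labels give. Each line is a single established culture, so 4 flasks measure the spread between cultures of that line and not between independent lines of the same tissue.

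The proteasome is the protease that degrades ubiquitin-tagged proteins in the cytoplasm and nucleus. Its barrel-shaped core particle is built of rings of alpha subunits (Prosalpha genes), which gate the entrance, and rings of beta subunits (Prosbeta genes), some of which carry the proteolytic sites. The regulatory particle caps the barrel. Its Rpt subunits are ATPases that unfold substrates, and its Rpn subunits form the scaffold, the ubiquitin receptors and the lid that removes ubiquitin. Several Drosophila subunits have paralogs expressed mainly in the testis, where they can replace the usual subunit during sperm formation.

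The libraries held 76822525 to 110163700 expected counts, which are read numbers that RSEM may divide between similar genes. Levels are given as the deposited TPM, which is scaled to transcript length and can be compared between genes. Fold changes and adjusted p-values come from edgeR's quasi-likelihood test on counts scaled by TMM factors, with Benjamini-Hochberg adjustment over 11606 tested genes and a threshold of 0.05. A log2 fold change above 0 means a higher level in D17-c3. The median log2 fold change over all tested genes was 0.04 on this scale but 0.18 on log2(TPM + 1) without further scaling, so TPM ran higher in D17-c3 for most genes. In the same order, 52.0% and 62.7% of all calls were higher in D17-c3. Of 9 imaginal disc markers, 8 were called higher and 1 (dpp) lower in D17-c3, with ci at 110 ± 20.1 TPM in D17-c3 and 0.552 ± 0.0670 TPM in S2-DRSC (SD, n = 4 each). Of 8 hemocyte markers, 1 (srp) was called higher and 5 lower in D17-c3, with Hml at 30.6 ± 9.60 TPM in D17-c3 and 310.0 ± 15.8 TPM in S2-DRSC. NimC1 averaged 1.43 and 1.31 TPM in those lines and was near the low end in both. So were the disc markers vg (0.63 and 0.09 TPM), nub (0.11 and 0.04 TPM) and dpp (0.145 and 0.33 TPM). The share called was 100% of the disc markers and 75% of the hemocyte markers, beside 75.2% of all tested genes. D17-c3 replicate 2 was the library least like its own group, and results that it changes are given with and without it.

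All 32 canonical subunits were expressed in all 8 libraries. Summed over them, TPM was 6343, 8040, 6294 and 6507 in the D17-c3 libraries and 5231, 4800, 5160 and 5282 in the S2-DRSC libraries. Every D17-c3 library was thus above every S2-DRSC library, with D17-c3 replicate 2 highest. The mean was 6796 ± 834 TPM in D17-c3, or 0.680% of all transcripts, and 5118 ± 218 TPM in S2-DRSC, or 0.512% (SD, n = 4 each). The ratio of D17-c3 to S2-DRSC was 1.33 in TPM, 1.25 without D17-c3 replicate 2, and 1.06 when counts scaled by TMM factors were summed instead. On those counts the lines overlapped, at 4934 to 5733 CPM in D17-c3 and 4761 to 5254 CPM in S2-DRSC. They overlapped as well on TPM after TMM scaling, at 5855 to 6707 in D17-c3 and 5311 to 5986 in S2-DRSC, so both the size of the difference and the separation of the lines depended on the scaling. In bulk RNA, fewer cells that express a gene and less RNA per cell cannot be told apart.

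Among single genes, 14 canonical subunits were called higher in D17-c3, 8 lower, and 10 did not pass the test. The share called was 68.8%, against 75.2% of all tested genes, of which 39.1% were higher and 36.1% lower. Being called was therefore no more frequent among subunits than among genes at large. The median log2 fold change of the canonical subunits was 0.16, against 0.04 over all tested genes. Of 14 core particle subunits 9 were higher and 1 lower, with a median of 0.33, whereas of 18 regulatory particle subunits 5 were higher and 7 lower, with a median of 0.07. The difference between these counts was not tested. Each of the 10 core particle calls kept its direction and passed the threshold under all 18 alternative analyses, but of the 12 regulatory particle calls only those of Rpn3 and Rpn9 did. For Prosalpha1, the alternative that summed it with CG30382, described below, tested the pair and not Prosalpha1 alone. Without scaling between libraries, limma on log2(TPM + 1) gave 22 canonical subunits higher and 1 lower. Over all 11606 tested genes that fit gave 5209 higher and 3105 lower, or 71.6% called. Leaving out D17-c3 replicate 1, D17-c3 replicate 4, S2-DRSC replicate 1 or S2-DRSC replicate 3 lowered the number of lower subunits to 5.

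**Figure D1:**
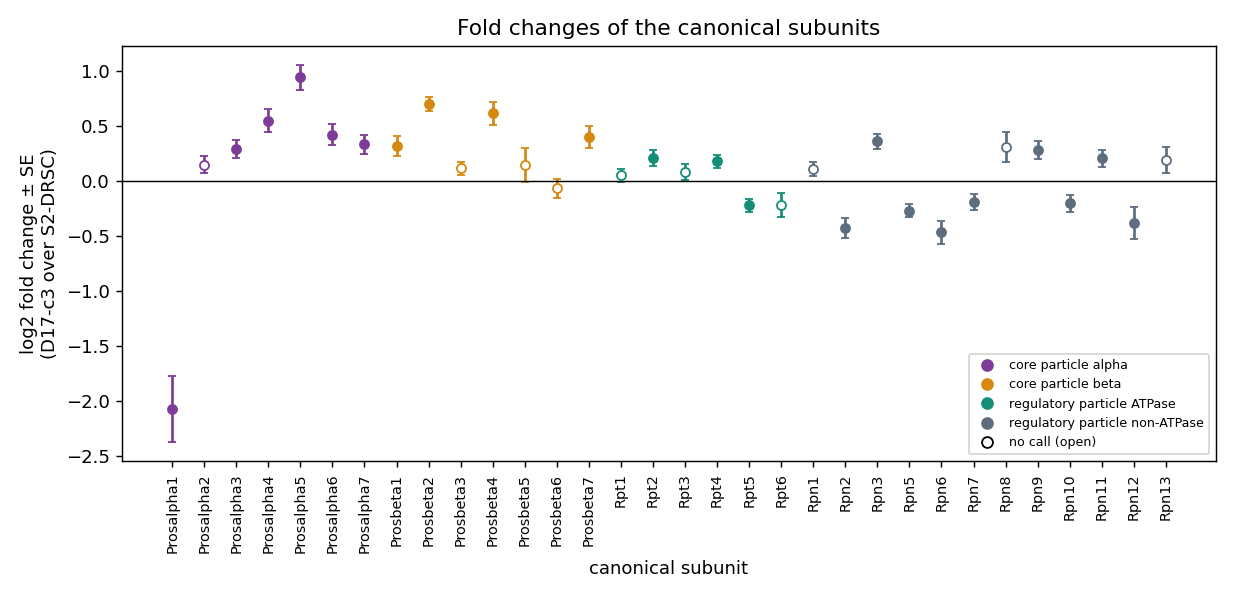
Log2 fold change of D17-c3 over S2-DRSC (y axis) with its SE for each of the 32 canonical subunits, coloured by class, with filled points for genes that passed an adjusted p of 0.05 and open points for the others. Core particle subunits lie mostly above 0, apart from Prosalpha1 at -2.07, and regulatory particle subunits lie on both sides of 0.

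The alpha ring genes included both the largest rise and the largest fall among canonical subunits. Prosalpha5 (2R, 17412767 to 17413769, plus strand, BDGP6) had 277, 403, 271 and 260.1 TPM in D17-c3, against 131, 122, 135 and 139 TPM in S2-DRSC. The lowest D17-c3 library was well above the highest S2-DRSC library. The log2 fold change was 0.94 ± 0.12 (SE) with an adjusted p of 4.78e-05, and by mean TPM Prosalpha5 had rank 5 of the 32 canonical subunits in D17-c3 and rank 26 in S2-DRSC. Prosalpha4, with 261 ± 46.9 TPM in D17-c3 and 150.0 ± 6.38 TPM in S2-DRSC (SD, n = 4 each), had a log2 fold change of 0.55 and an adjusted p of 0.000935. Prosalpha6, Prosalpha7 and Prosalpha3 were also higher, by log2 fold changes of 0.42, 0.34 and 0.30. Prosalpha2 did not pass the test (log2 fold change 0.15, adjusted p = 0.110), although its TPM values did not overlap between the lines, at 329 to 443 TPM in D17-c3 and 252 to 293 TPM in S2-DRSC. It was among the most abundant subunits in both lines.

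**Figure D2:**
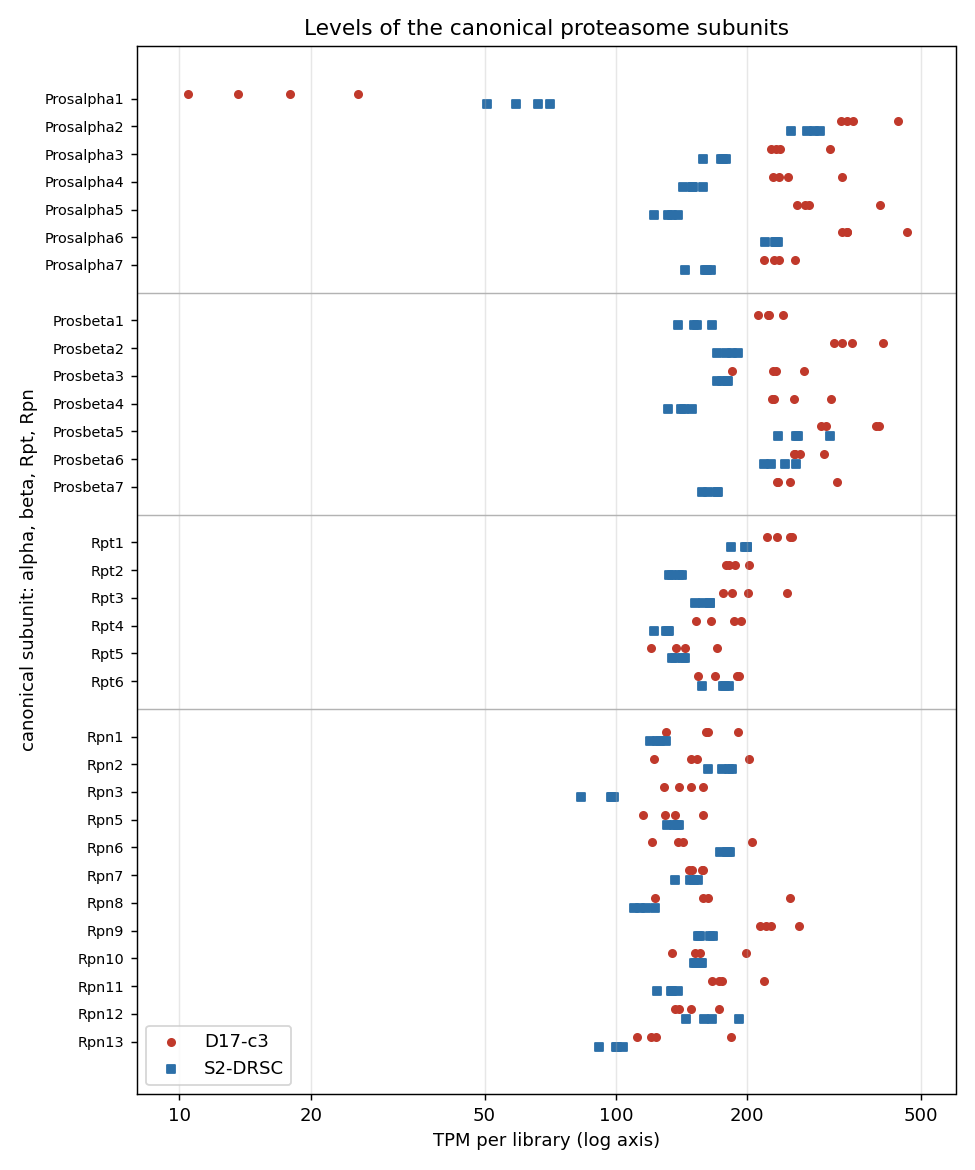
TPM (log axis) of each of the 32 canonical subunits in every library, with D17-c3 as red circles above and S2-DRSC as blue squares below in each row. Prosalpha1 is the lowest subunit in every library, at 10.5 to 25.7 TPM in D17-c3 and 50.5 to 70.6 TPM in S2-DRSC.

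Prosalpha1 went the other way. It lies at 7827303 to 7828678 on 2R, on the minus strand, and had 10.5, 13.6, 25.7 and 17.9 TPM in D17-c3, against 66.2, 58.9, 50.5 and 70.6 TPM in S2-DRSC. The lines did not overlap, and the log2 fold change was -2.07 ± 0.30 with an adjusted p of 0.000152. Its own value is uncertain, because Prosalpha1 shares reads with CG30382, a gene on the same strand at 7830413 to 7831771 that the annotation names Prosalpha1R. Both have 4 exons and a coding sequence of 244 codons. The expected count of Prosalpha1 was not whole in any library, but its sum with that of CG30382 was whole in all 8 (within 0.02 counts), for example 559.8 and 14940.2 counts that sum to 15500 in D17-c3 replicate 1. RSEM thus divided one pool of reads between both genes.

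CG30382 took most of that pool. It had 287, 333, 331 and 309 TPM in D17-c3, against 578, 518, 579.5 and 619 TPM in S2-DRSC, with no overlap and a log2 fold change of -1.11 ± 0.11 (adjusted p = 9.10e-06). Prosalpha1 received 3.52% to 7.20% of the TPM of the pair in D17-c3 and 8.02% to 10.3% in S2-DRSC. Summing the pair avoids the division. The sum was 332 ± 26.1 TPM in D17-c3 and 635 ± 46.4 TPM in S2-DRSC (SD, n = 4 each), and a fit to the summed counts gave a log2 fold change of -1.18 ± 0.11 with an adjusted p of 9.87e-06, a smaller fall than the -2.07 of Prosalpha1 alone.

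Set against the mean TPM of the other alpha subunits of the same library, the pair came to 0.943 to 1.298 in D17-c3 and 3.32 to 3.61 in S2-DRSC. This ratio is unaffected by scaling between libraries. The pair was therefore near the level of its ring partners in D17-c3 and above it in S2-DRSC, where it was higher than any other canonical subunit in each library. CG18853 lies between both genes on the opposite strand (7829062 to 7830429) and overlaps the end of CG30382. It had 0 counts in each D17-c3 library and 79.0 to 89.8 TPM in S2-DRSC. On its other side Prosalpha1 overlaps the end of phr, which had 42.7 ± 5.91 TPM in D17-c3 and 64.8 ± 2.17 TPM in S2-DRSC (log2 fold change -0.81, adjusted p = 0.000598). The expected counts of CG18853 and phr were not whole in any S2-DRSC library, whereas those of phr were whole in D17-c3. RSEM thus divided some of their reads with other genes in S2-DRSC, so their levels there are uncertain as well. Whether the counts were made per strand is not stated in the labels or headers, and the part of these neighbours in the values of the pair was not tested.

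**Figure D3:**
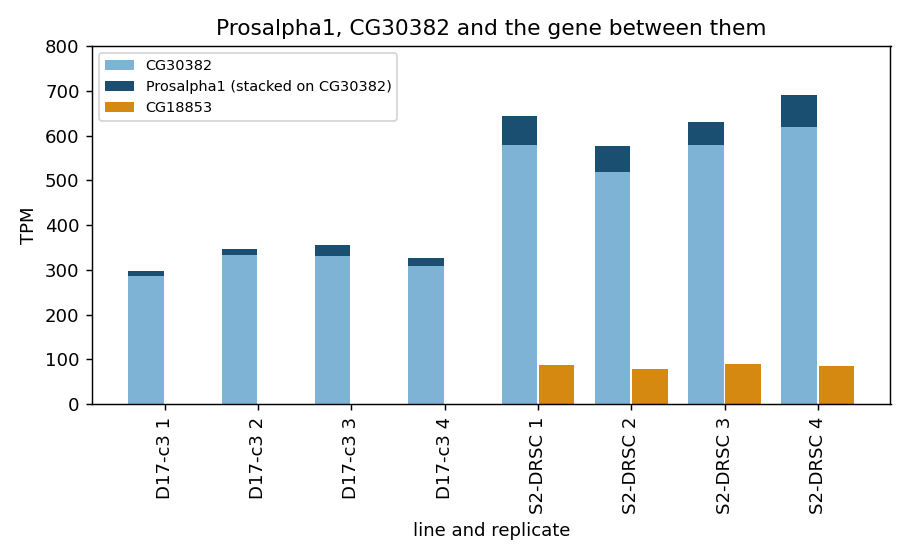
TPM in each library of CG30382 with Prosalpha1 stacked on it (left bar) and of CG18853 (right bar), with D17-c3 libraries left of S2-DRSC libraries. The stacked pair averages 332 TPM in D17-c3 and 635 TPM in S2-DRSC, Prosalpha1 is its smaller share throughout, and CG18853 is at 0 in D17-c3.

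Of the beta ring genes, 4 were higher in D17-c3 and 3 did not pass the test. Prosbeta2, which carries a proteolytic site, had 329.8, 410.3, 316 and 347 TPM in D17-c3, against 185, 171, 191 and 178 TPM in S2-DRSC. It lies on 3L at 14999951 to 15001319, and its lines were far apart, with a log2 fold change of 0.70 ± 0.06 (adjusted p = 6.67e-06). Prosbeta4, a structural beta subunit on 2L at 16731180 to 16732133, had 231, 311, 256 and 228 TPM in D17-c3, against 143, 132, 141 and 149.7 TPM in S2-DRSC, again without overlap. Its log2 fold change was 0.62 ± 0.11 (adjusted p = 0.000509). Prosbeta7 (0.40) and Prosbeta1 (0.32), another of the proteolytic subunits, were higher by less. The remaining proteolytic subunit, Prosbeta5, had 349 ± 57.2 TPM in D17-c3 and 266 ± 30.9 TPM in S2-DRSC with overlapping libraries and an adjusted p of 0.401. Prosbeta6 and Prosbeta3 had adjusted p-values of 0.496 and 0.112. The 3 proteolytic subunits thus had log2 fold changes of 0.70, 0.32 and 0.15, of which that of Prosbeta5 did not pass the test.

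Within each library, the mean TPM of the core particle subunits was set against that of the regulatory particle subunits, a ratio that no scaling between libraries can alter. It was 1.53, 1.62, 1.67 and 1.48 in the D17-c3 libraries and 1.23, 1.20, 1.21 and 1.27 in the S2-DRSC libraries. Every D17-c3 library was above every S2-DRSC library, and D17-c3 replicate 2 lay within the range of its group. The means were 1.57 ± 0.0851 in D17-c3 and 1.23 ± 0.0297 in S2-DRSC (SD, n = 4 each). Core particle subunits averaged 267 ± 35.2 TPM in D17-c3 and 178 ± 9.25 TPM in S2-DRSC, and regulatory particle subunits 169.8 ± 19.9 TPM in D17-c3 and 146 ± 5.19 TPM in S2-DRSC. When CG30382 was counted with the core particle, the ratio was 1.61 to 1.82 in D17-c3 and 1.47 to 1.57 in S2-DRSC, so the gap narrowed but the lines still did not overlap. Leaving out Prosalpha1 gave means of 1.69 in D17-c3 and 1.29 in S2-DRSC. Sem1, a regulatory particle subunit that the name rule does not match, is in none of these ratios. It had 376 to 644 TPM in D17-c3 and 221 to 234 TPM in S2-DRSC. Counting Sem1 would raise the regulatory particle mean more in D17-c3, and no ratio with it is printed. With CG30382 and Sem1 both counted, the ratio of D17-c3 replicate 4 (Sem1 at 414 TPM) falls below that of S2-DRSC replicate 4 (229 TPM). The separation of the lines therefore does not hold for that set and is stated only for the genes counted.

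**Figure D4:**
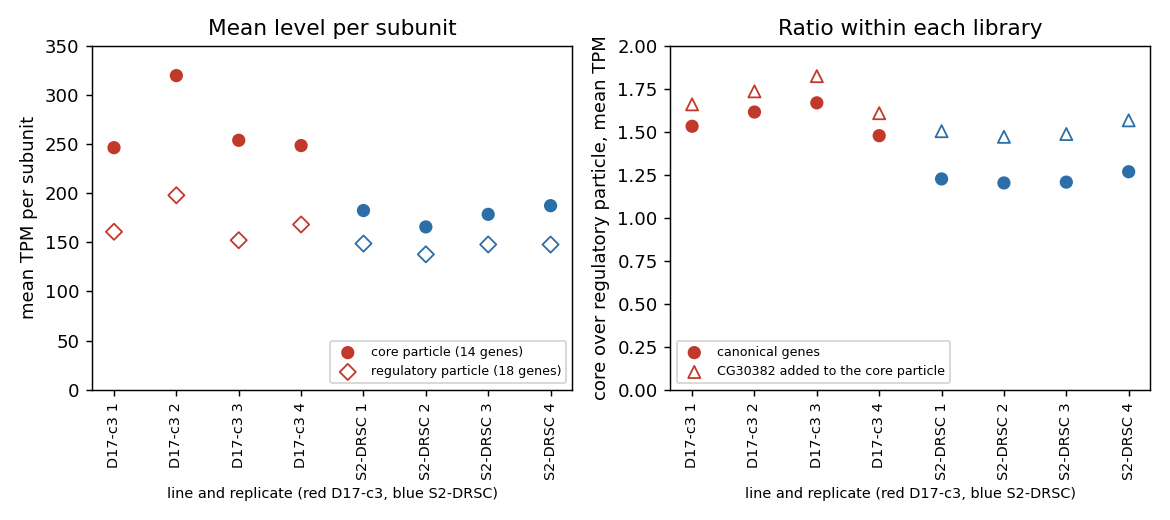
Mean TPM per subunit of the core and the regulatory particle in each library (left panel) and their ratio (right panel), for the canonical genes (filled) and with CG30382 added to the core particle (open). Ratios of the canonical genes lie at 1.48 to 1.67 in D17-c3 and 1.20 to 1.27 in S2-DRSC.

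The ATPase genes of the regulatory particle differed little. Rpt2 and Rpt4 were higher in D17-c3, with log2 fold changes of 0.21 (adjusted p = 0.0251) and 0.18 (adjusted p = 0.0181), and Rpt5 was lower at -0.22 (adjusted p = 0.00845). Rpt1, Rpt3 and Rpt6 did not pass the test. The log2 fold changes of all 6 lay between -0.22 and 0.21, a narrower range than in either ring of the core particle. None of the 3 calls held under every alternative. Rpt5 had 143 ± 20.7 TPM in D17-c3 and 139.6 ± 4.53 TPM in S2-DRSC (SD, n = 4 each), so its fall in scaled counts did not appear in mean TPM. Without D17-c3 replicate 2, which had 170 TPM, the D17-c3 mean was 134 TPM, below that of S2-DRSC. Rpt5 also overlaps Hrd3 on the opposite strand, and Hrd3 was itself lower in D17-c3 (log2 fold change -0.67).

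Of the 12 Rpn genes, 3 were higher in D17-c3 and 6 lower. Rpn3, a lid subunit, had 144 ± 12.7 TPM in D17-c3 and 94.4 ± 7.44 TPM in S2-DRSC (SD, n = 4 each), with a log2 fold change of 0.36 (adjusted p = 0.000824). Rpn9, another lid subunit, had 231 ± 21.9 TPM in D17-c3 and 160.3 ± 6.17 TPM in S2-DRSC, with a log2 fold change of 0.28 (adjusted p = 0.0103). Rpn11, the deubiquitinating subunit of the lid, had a log2 fold change of 0.21 (adjusted p = 0.0289). The lid thus held all 3 Rpn genes that were higher, but it also held 4 that were lower.

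The largest falls after Prosalpha1 were in Rpn6 and Rpn2. Rpn6, a lid subunit on 2R at 14750166 to 14752910, had 139, 206, 121 and 142 TPM in D17-c3, against 179.8, 173, 183 and 181 TPM in S2-DRSC. Only D17-c3 replicate 2 reached the S2-DRSC values, and the log2 fold change was -0.46 ± 0.11 (adjusted p = 0.00272). Rpn2, a large scaffold subunit of the base on 3R at 29153524 to 29157255, had 148.5, 201, 122 and 153 TPM in D17-c3, against 184, 175, 182 and 163 TPM in S2-DRSC. Here too replicate 2 was the only D17-c3 library not below all S2-DRSC libraries, and the log2 fold change was -0.42 ± 0.09 (adjusted p = 0.00199). On log2(TPM + 1) without scaling neither call held, with limma adjusted p-values of 0.134 for Rpn6 and 0.243 for Rpn2. Rpn12, Rpn5, Rpn10 and Rpn7 were lower by log2 fold changes between -0.38 and -0.19, and their TPM values overlapped between the lines. Rpn10 is a ubiquitin receptor of the particle. The other receptor subunit Rpn13, the large base subunit Rpn1 and the lid subunit Rpn8 did not pass the test, with adjusted p-values of 0.154, 0.161 and 0.0605. Rpn8 had 250.4 TPM in D17-c3 replicate 2 against 123 to 162 TPM in the other D17-c3 libraries, and without replicate 2 it passed narrowly with a smaller log2 fold change (0.14 against 0.31, adjusted p = 0.0442). Without that library Rpn12 and Rpn7 lost their calls. Counts of the regulatory particle moved with single libraries: 5 were higher with all libraries, but 3 without D17-c3 replicate 4 and 2 without S2-DRSC replicate 1, 2 or 3.

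By TPM alone, without scaling, 21 canonical subunits had all D17-c3 libraries above all S2-DRSC libraries, and 1, Prosalpha1, had all of them below. Over all tested genes, 43.8% lay above and 25.1% below in this way, 68.8% together. On counts scaled by TMM factors 13 canonical subunits lay above and 5 below without overlap, against 71.6% of all tested genes in either direction. The 21 by TPM were 11 of the 14 core particle genes and 10 of the 18 regulatory particle genes.

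The spread of levels among the subunits depended on how the reads of Prosalpha1 and CG30382 were treated. The highest canonical subunit of a library exceeded the lowest by 25.3 ± 9.28-fold in D17-c3 and 4.68 ± 0.637-fold in S2-DRSC (SD, n = 4 each), with Prosalpha1 the lowest in every library. Without Prosalpha1 the ratios were 3.13 ± 0.365 in D17-c3 and 3.02 ± 0.116 in S2-DRSC, with overlap. With the summed pair in place of Prosalpha1 the order of the lines turned round: the ratios were 3.13 ± 0.365 in D17-c3 and 6.74 ± 0.314 in S2-DRSC, without overlap, since the pair was then the highest in each S2-DRSC library. In D17-c3 the order by mean TPM was led by Prosalpha6 (368 ± 64.7), Prosalpha2 (365 ± 52.8), Prosbeta2 (351 ± 41.6) and Prosbeta5 (349 ± 57.2), whose ranges over libraries overlapped. Within each D17-c3 library Prosalpha2 was above Prosbeta2, while the other neighbouring pairs changed order between libraries. In S2-DRSC it was led by Prosalpha2 (276 ± 17.7), Prosbeta5 (266 ± 30.9), Prosbeta6 (237 ± 17.9) and Prosalpha6 (229.9 ± 7.24). The ranges of these neighbours overlapped as well. Prosbeta5 was above Prosbeta6 within each S2-DRSC library, while the other neighbouring pairs changed order. Next above Prosalpha1 came Rpn13 in D17-c3 (135 ± 32.9) and Rpn3 in S2-DRSC (94.4 ± 7.44). Across the 32 genes the mean TPM of D17-c3 and that of S2-DRSC had a Spearman rho of 0.61, and 0.57 over 31 genes without Prosalpha1. These points share gene length and sequence between lines.

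D17-c3 replicate 2 had the highest TPM of its line for 28 of the 32 canonical subunits, or 87.5%, against 49.0% of all tested genes. On counts scaled by TMM factors it was highest for 18, or 56.2%, against 37.4% of all tested genes. Its TPM exceeded the mean of the other D17-c3 libraries by a median ratio of 1.26 over the subunits and 1.11 over all tested genes. The library also stood high for the glutathione transferase gene GstD1, with 1102 TPM against 583 to 655 TPM in the other D17-c3 libraries, for Gclm, a subunit of the glutathione synthesis enzyme, with 294 against 71.7 to 81.4 TPM, and for the autophagy receptor ref(2)P, with 588 against 199 to 245 TPM. Markers of cell type moved in it as well. Of the 8 hemocyte markers, 5 were highest and 2 lowest of the line in replicate 2, with He at 57.9 TPM against 6.63 to 9.77 TPM in the other D17-c3 libraries, NimC1 at 3.57 against 0.560 to 0.920 TPM, and Hml lower at 16.3 against 33.9 to 36.8 TPM. Their summed TPM was 289.9 in replicate 2, 186.5 to 245 in the other D17-c3 libraries and 1581 to 1635 in S2-DRSC. Of the 9 disc markers, 5 were highest and 3 lowest, with Egfr at 41.8 against 90.9 to 117 TPM and hh at 40.3 against 70.6 to 94.5 TPM, and a sum of 419 TPM against 414 to 515 TPM in the other D17-c3 libraries and 69.0 to 82.4 TPM in S2-DRSC. The part of all these genes in the subunit values was not tested. Without this library 15 canonical subunits were higher and 6 lower.

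Of the 15 paralogs, 5 passed the filter on low counts and 10 had at most 5 counts in any library. The 5 that passed were each called higher in D17-c3. The filter keeps a gene that is high in a single line, so a paralog that entered through D17-c3 was bound to differ and the count by itself shows nothing about paralogs. Rpt3R, a paralog of the ATPase Rpt3 on 3R at 9754735 to 9756510, was the best expressed. It had 32.0, 34.2, 34.7 and 33.1 TPM in D17-c3, against 9.69, 8.75, 9.47 and 10.1 TPM in S2-DRSC, with a log2 fold change of 1.58 ± 0.10 (adjusted p = 6.82e-07). That was 13.9% to 19.7% of the TPM of Rpt3 in D17-c3 and 5.75% to 6.39% in S2-DRSC. Rpt3R overlaps CG8412 (Alg12 in the annotation) on the opposite strand, and CG8412 had 28.0 ± 4.80 TPM in D17-c3 and 25.6 ± 3.59 TPM in S2-DRSC without a call (log2 fold change -0.12, adjusted p = 0.329).

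The other paralogs were at most 1.21% of the TPM of the subunit they resemble. Prosbeta2R2 had 3.22, 4.43, 3.55 and 3.22 TPM in D17-c3, against 0.160, 0.170, 0.160 and 0.250 TPM in S2-DRSC, from 1045 and 65 counts in all. The log2 fold change was 4.01 ± 0.23 (adjusted p = 2.86e-07), and the D17-c3 level was at most 1.12% of that of Prosbeta2. Rpt6R had 0.890, 2.32, 0.670 and 1.12 TPM in D17-c3, against 0.0700, 0.0400, 0.0700 and 0.0600 TPM in S2-DRSC, from 398 and 23 counts. The lines did not overlap, and D17-c3 replicate 2 was above the other D17-c3 libraries. As Rpt6R has at most 7 counts in an S2-DRSC library and entered the test through D17-c3, its log2 fold change of 4.08 ± 0.42 is given as a description, without a p-value. Prosbeta5R2 had 38, 73, 14 and 15 counts in D17-c3, against 6, 11, 7 and 1 counts in S2-DRSC (log2 fold change 2.48 ± 0.63, likewise as a description). Rpt4R had 22, 14, 20 and 23 counts in D17-c3, against 1, 0, 0 and 0 counts in S2-DRSC. The ratio of these sums, per scaled library size, was 80.2 with a 95% counting interval of 13.99 to 3209. That interval covers counting error in the pooled reads and not the spread between flasks. As Rpt4R also entered the test through D17-c3, its ratio and interval are given as a description. Under a filter of 1 CPM in 4 libraries, Rpt3R and Prosbeta2R2 were the only paralogs tested. Prosbeta2R2 passed that filter through its D17-c3 libraries alone, so its call there was set by the filter.

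Among the untested paralogs, Prosalpha4T2 had 2, 5, 2 and 0 counts in D17-c3, against 0, 2, 3 and 0 counts in S2-DRSC, and Prosbeta5R1 had 5, 2, 0 and 4 counts in D17-c3 against 0 in each S2-DRSC library. A library in which a gene has 0 counts still allows a level of up to 3 counts, or 0.0294 to 0.0380 CPM. The remaining 8 never exceeded 3 counts per library, and Prosbeta4R1 had 1 count over all 8 libraries. A transcript with a single exon was annotated for 6 of the 15 paralogs and 4 of the 32 canonical subunits.

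**Figure D5:**
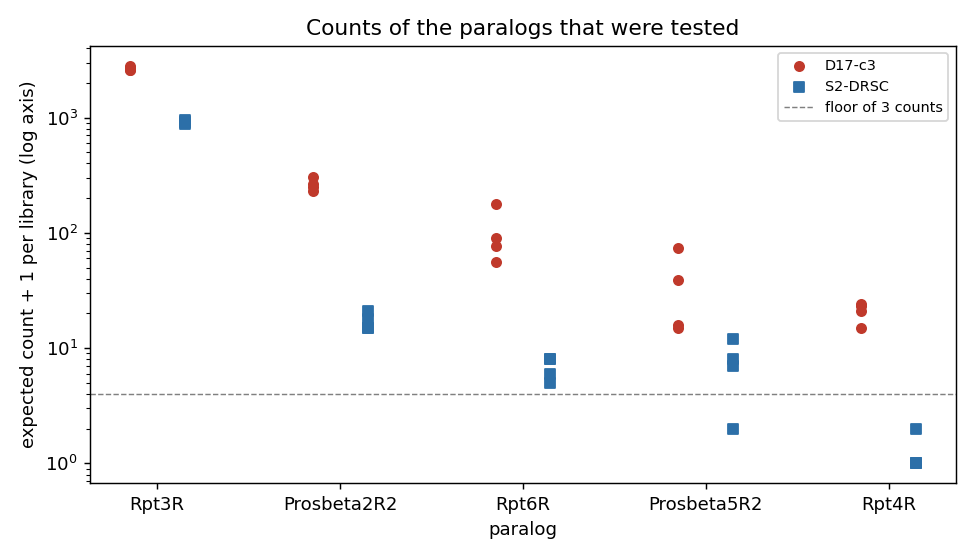
Expected count plus 1 (log axis) of the 5 tested paralogs in each library, with D17-c3 as red circles and S2-DRSC as blue squares, and a dashed line at a floor of 3 counts. Rpt3R is the best expressed, and Rpt4R has 14 to 23 counts in D17-c3 and 0 or 1 in S2-DRSC.

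Several subunits share their locus with another gene: 17 of the 47 members overlap a gene on the opposite strand and 4 overlap a gene on their own strand. The canonical subunits lie on all 5 large chromosome arms. Their median log2 fold change was 0.39 on 2L (4 genes, all called higher), 0.24 on 2R (10 genes), 0.13 on X (4 genes), 0.12 on 3R (9 genes) and -0.07 on 3L (5 genes). The medians of all tested genes on those arms were 0.14, -0.01, 0.01, -0.02 and 0.13. Core particle transcripts were shorter, with a median effective length of 800.1 bases against 1293 bases for the regulatory particle. Over the 32 subunits length and log2 fold change had a Spearman rho of -0.42, and within the core and the regulatory particle 0.07 and -0.22. Over all tested genes it was -0.02. These genes were measured in the same libraries, and the part of length in the difference between particles was not tested.

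Partners of the proteasome did not move in one direction. Of 9 measured assembly factors, activators and partners, 3 were higher in D17-c3 and 4 lower. The share called was 77.8% here, 72.7% among the CncC genes and 46.2% among the ubiquitin and p97 genes described next, beside 75.2% of all tested genes. Sem1, a small subunit of the regulatory particle, had 466 ± 121 TPM in D17-c3 and 226 ± 5.98 TPM in S2-DRSC (log2 fold change 0.77, adjusted p = 0.000212). Pomp, the chaperone that matures the core particle, had 149 ± 5.33 TPM in D17-c3 and 86.5 ± 6.75 TPM in S2-DRSC (0.53, adjusted p = 0.000250). Among those lower besides CG30382 was REG, an alternative cap that activates the core particle without ATP, with 159.8 ± 6.47 TPM in D17-c3 and 211 ± 6.01 TPM in S2-DRSC (-0.64, adjusted p = 2.55e-05). Sem1 and Pomp thus differed in the direction of most core particle subunits, and REG in the opposite one.

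The transcription factor CncC, encoded by cnc, pairs with the small Maf protein of maf-S and activates antioxidant and proteasome genes in flies. Of 11 genes listed around it, 4 were higher in D17-c3 and 4 lower. cnc itself had 143 ± 22.2 TPM in D17-c3 and 36.0 ± 3.61 TPM in S2-DRSC (log2 fold change 1.56, adjusted p = 5.14e-07). This value is the total over all transcripts of cnc, whose mean effective length was 5279 bases in D17-c3 and 5974 bases in S2-DRSC. Transcripts that encode CncC were not measured apart. The partner gene maf-S was lower, at 73.1 ± 5.27 TPM in D17-c3 and 162 ± 1.29 TPM in S2-DRSC (-1.39, adjusted p = 1.29e-06). GstD1, a commonly used CncC target, was higher, with a log2 fold change of 1.83 (adjusted p = 1.22e-05). Keap1, which restrains CncC, did not pass the test (0.14, adjusted p = 0.203). Sip3 and Hrd3 act in degradation of proteins from the endoplasmic reticulum, and both genes were lower.

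Of 13 genes of ubiquitin supply and of the p97 segregase, which extracts proteins for the proteasome, 3 were higher and 3 lower in D17-c3. The polyubiquitin gene Ubi-p63E (log2 fold change 0.42, adjusted p = 0.00494) and Npl4, a p97 cofactor (0.39, adjusted p = 0.00659), led those higher. The count of Ubi-p63E is uncertain, since its ubiquitin repeats resemble those of Ubi-p5E. The ubiquitin fusion genes RpL40 (-0.37, adjusted p = 0.0372) and RpS27A (-0.33, adjusted p = 0.0287) were lower. Without scaling between libraries, on log2(TPM + 1), 7 of the 13 were higher, as were 5209 of all 11606 tested genes.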

How the data were processed

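Each of the 8 libraries had a table of 17730 genes. Per the submitters' processing notes, the tools were RSEM, STAR 2.7.3a, Trim Galore 0.6.4, Subread 2.0.0, featureCounts and DESeq2 1.30.1, and the builds dm6 and BDGP6, with no roles stated. Per the labels' protocols, libraries were stranded, but no label or header says whether reads were counted per strand. Per the file headers, the tables hold expected counts, TPM, FPKM and gene lengths. Deposited expected counts were not whole for 16.8% to 18.2% of genes above 0 and were rounded for tests. Deposited TPM sums to 1 constant total per library and keeps no depth. Deposited FPKM equalled expected count over effective length and total within rounding at 99.8% or more of genes and entered no test.

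Libraries were grouped by the line in their labels. edgeR 4.0.16 (quasi-likelihood test, TMM, filterByExpr, all 8 libraries; 3.23 prior degrees of freedom and 0.187 as the common biological coefficient of variation) was run in R 4.3.3 on all genes, with Benjamini-Hochberg adjustment, and was tested on simulated data. It called 24.6% of genes simulated with a 1.41-fold change, 83.6% at 2-fold and 95.4% at 4-fold. In that simulation 10449 of 10644 genes were unchanged, unlike in the data, so these shares do not carry over directly. Each SE is the size of the log2 fold change divided by the root of its F statistic. Alternatives used limma 3.58.1, DESeq2 1.42.0, other scalings and filters, a replicate block, summed copies and leaving out each library. Replicates differed by at least 8.80 chi-square per degree of freedom, so none was merged. Intervals and floors cover counting error only, as reads carry no molecular identifiers. Positions come from an Ensembl annotation of BDGP6, which held 17633 of the 17730 identifiers and all 47 members.

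The members, lists and tests were chosen with earlier results of these data known. Values per library are given for the 3 canonical subunits per direction with the largest fold change among called ones, for Prosalpha1 and CG30382, and for paralogs with over 3 counts in a library; of other lists, the 2 genes called in each direction that moved most are named, plus genes needed beside a subunit. Prosalpha1 neighbours and CG8412 were chosen after their values were seen. Ecm29 and CSN2 matched no symbol in the tables and are not used here.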

Additional observations from a re-analysis of the deposited data

Results flagged for a closer look

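Each value below lay far from the other libraries of its line, by the gap to its nearest neighbour relative to the range of the 4 libraries. Of 92 groups of 4 libraries, 13 held such a value, whereas chance gives about 1 in 20, and groups of related genes in the same libraries are not independent. Of the 13, 6 were in D17-c3 replicate 2. There Prosalpha3 had 309 TPM, against 226 to 237 TPM in the other D17-c3 libraries. Prosalpha5 had 403 TPM, against 260.1 to 277 TPM in the others. Prosalpha6 had 465 TPM, against 329 to 339 TPM. Rpn13 had 184 TPM, against 112 to 124 TPM. The summed TPM of the canonical subunits was 8040, against 6294 to 6507, and the mean TPM of the core particle subunits was 319.8, against 246 to 254.

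The other 7 were in S2-DRSC. In S2-DRSC replicate 2, Rpn3 had 83.2 TPM against 97.4 to 98.8 TPM in the other S2-DRSC libraries, Rpt1 had 183 TPM against 197 to 199.9 TPM, and the regulatory particle subunits averaged 138 TPM against 147.8 to 148.8 TPM. In S2-DRSC replicate 4, Prosbeta2R2 had 0.250 TPM against 0.160 to 0.170 TPM, and the pair of Prosalpha1 and CG30382 came to 3.61 times the mean of the other alpha subunits, against 3.32 to 3.37. In S2-DRSC replicate 3, the highest canonical subunit exceeded the lowest by 5.63-fold, against 4.28-fold to 4.43-fold. Rpt4R had 0.0100 TPM in S2-DRSC replicate 1 and 0 in the other S2-DRSC libraries, from a single count.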

How the results depend on the processing

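The 10 calls of the core particle held under all 18 alternatives, as did those of Rpn3 and Rpn9. With summed copies, the call counted for Prosalpha1 was that of its pair with CG30382. The 7 regulatory particle subunits called lower each lost that call on unscaled TPM, and Rpn11, Rpt2 and Rpt4 lost theirs under no change of scaling but with no filter, with some libraries left out or, for Rpn11, with the replicate block. On unscaled TPM, with a pseudocount of 0.1 or 1, 22 canonical subunits were higher in D17-c3 (14 as reported) and 1 lower (8), with 10 regulatory particle subunits higher (5) and 0 lower (7). With library totals only, 3 canonical subunits were lower, and 10 regulatory particle subunits were higher and 2 lower. That fit called 75.1% of all tested genes, and 60.0% of those calls were higher. A filter of 1 CPM in 4 libraries left 5 canonical and 4 regulatory particle subunits lower and 2 paralogs higher (5), and with no filter 2 regulatory particle subunits were higher. Leaving out 1 library gave 11 to 15 canonical subunits higher and 5 to 9 lower. Among regulatory particle subunits, 2 to 6 were higher and 4 to 8 lower. The 5 tested paralogs were called higher in each of these fits. Of these paralogs, Rpt4R, Rpt6R and Prosbeta5R2 passed the filter through D17-c3 alone. Their direction was thus set by the filter, and leaving out a library did not test it. The log2 ratio of the summed subunit level (D17-c3 over S2-DRSC) was 0.41 in TPM, 0.090 in summed CPM, 0.15 in TPM after TMM scaling and 0.32 to 0.44 with a library left out.

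In the other lists, unscaled TPM gave 2 assembly factors and partners lower (4 as reported), 2 CncC genes lower (4), 5 autophagy genes lower (11), 5 ubiquitin and p97 genes higher with pseudocount 0.1 and 7 with 1 (3), and 0 of those lower (3). Library totals only gave 5 ubiquitin and p97 genes higher and 0 lower, and the filter of 1 CPM left 1 lower. COP9 genes lower numbered 1 as reported and 2 with DESeq2, median-of-ratios size factors, TMM-scaled TPM or no filter. With a library left out, the numbers lower were 4 to 5 (assembly), 3 to 4 (CncC), 1 to 4 (ubiquitin and p97), 1 to 2 (COP9), 2 to 4 (CCT, 4 without D17-c3 replicate 2) and 10 to 13 (autophagy), and 2 to 3 ubiquitin and p97 genes were higher.

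Single genes changed the sign of their log2 fold change. On unscaled TPM these were Prosbeta6 (0.18, and 0.10 with library totals only; -0.07 as reported), Rpn10 (0.039; -0.20), Rpn7 (0.056; -0.19), Rpt5 (0.023; -0.22), Rpt6 (0.018; -0.22), Usp14 (0.062; -0.18) and ref(2)P (0.11, 0.15 with library totals only and 0.039 with the filter of 1 CPM; -0.02). Rpt1 was at -0.0024 without S2-DRSC replicate 2 and at up to 0.068 with another library left out (0.05). Ubqn was at -0.021 on TMM-scaled TPM and -0.18 to 0.16 with a library left out (0.08), Gclm at -0.083 to 0.77 (0.59) and ref(2)P at -0.45 to 0.094. Of these genes, Rpn10, Rpn7, Rpt5 and Usp14 carried a call as reported. The cause of these changes was not tested beyond the scaling itself.

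Replicate numbers did not pair the libraries: deviations of same-numbered libraries correlated at 0.01, 0.11, -0.04 and 0.05, and not every library correlated best with its own number. With the replicate number as a block, 13 canonical subunits were higher and 6 lower, 1 ubiquitin and p97 gene and 2 COP9 genes were lower, and 8612 genes in all were called, against 8725 without it. Depth limits the paralogs, of which 10 had at most 5 counts in a library.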

Other observations

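The COP9 signalosome is a complex related in structure to the lid of the regulatory particle, and it removes Nedd8 from cullin ubiquitin ligases. Of 8 tested subunit genes, 4 were higher in D17-c3 and 1 lower. CSN8 had 139 ± 7.73 TPM in D17-c3 and 59.8 ± 2.12 TPM in S2-DRSC (SD, n = 4 each; log2 fold change 0.97, adjusted p = 5.92e-06). The subunit gene alien had 244 ± 11.8 TPM in D17-c3 and 106 ± 1.01 TPM in S2-DRSC (0.97, adjusted p = 5.90e-06). CSN6 was lower, at 62.4 ± 6.34 TPM in D17-c3 and 104 ± 4.75 TPM in S2-DRSC (-0.99, adjusted p = 1.35e-06). CSN1a had 0 counts in all 8 libraries and was not tested. The CCT chaperonin, a ring-shaped folding machine, had 2 of its 8 genes higher and 2 lower. Together 5 of 8 COP9 genes (62.5%) and 4 of 8 CCT genes (50%) were called, beside 75.2% of all tested genes. Over all tested genes 39.1% were higher and 36.1% lower. CCT4 had 621 ± 116 TPM in D17-c3 and 247 ± 11.9 TPM in S2-DRSC (1.08, adjusted p = 1.87e-05), and CCT2 had a log2 fold change of 0.42. CCT7 (-0.64) and CCT5 (-0.63) were lower. Both complexes, like the proteasome and the tested genes at large, thus held genes that differed in opposite directions between the lines.

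Autophagy, the lysosomal route of degradation, had 3 of 18 tested genes higher in D17-c3 and 11 lower. The share called was 77.8%, beside 75.2% of all tested genes, of which 39.1% were higher and 36.1% lower. Their median log2 fold change was -0.33, against 0.04 over all tested genes. Atg14, a subunit of the lipid kinase complex that starts autophagosome formation, had 37.4 ± 3.07 TPM in D17-c3 and 75.6 ± 3.37 TPM in S2-DRSC (-1.26, adjusted p = 9.73e-08). Atg16, part of the complex that couples Atg8 to membranes, had 25.7 ± 2.33 TPM in D17-c3 and 46.8 ± 2.26 TPM in S2-DRSC (-1.10, adjusted p = 9.75e-08). Atg1, the kinase that initiates the process, was higher, at 67.8 ± 7.86 TPM in D17-c3 and 16.1 ± 2.00 TPM in S2-DRSC (1.81, adjusted p = 1.78e-07). Atg12 was higher by 0.80 (adjusted p = 0.00127). On unscaled TPM 5 autophagy genes were lower, so the number depended on the scaling. With a pseudocount of 1, 3105 of all 11606 tested genes were lower on that scale.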
